A study of Brassica oleracea with 4 samples.

Results

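The 5 calcium transporter genes described here, from broccoli (Brassica oleracea), were measured in seedling stems that had received a calcium spray or water. Members were the genes of the deposited table whose annotation begins with the name CAX1, ACA1, ACA10 or ACA11. This gave 5 of 135 genes, namely 2 homologues of the exchanger CAX1 and 1 homologue each of the pumps ACA10, ACA1 and ACA11. RNA was sequenced from hypocotyls, the stem below the seed leaves, of 10-day-old microgreens. One group had been sprayed daily with 10 mmol/L calcium chloride and the other with water (pH 5.5-6.0), and both grew on hydroponic pads at 25 °C, in darkness for the first 4 days and in 12 h days afterwards. The labels list 2 libraries per group and give no cultivar or tray.

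Calcium ions act as a signal in the plant cytosol, where their concentration is kept very low, and transport proteins return them to stores or to the outside after each signal. CAX exchangers sit in the vacuolar membrane and load calcium into the vacuole in exchange for protons. They use the proton gradient built by proton pumps of that membrane. ACA proteins are ATP-driven calcium pumps with an autoinhibitory region near the amino terminus, which calmodulin releases when calcium rises. In Arabidopsis, ACA11 is known from the vacuolar membrane and ACA10 from the plasma membrane. ACA1 was first assigned there to the plastid envelope and later to the endoplasmic reticulum. These locations are background from Arabidopsis and were not measured in broccoli. The reference gene table holds 0 of the 5 identifiers, so names come from the deposited annotation, and no sequence or position is given.

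The table holds 1 RPKM value per gene for each spray (reads scaled to gene length and to the total of mapped reads). Single libraries have no value in it, so replicate error is unknown and no difference could be tested. Each fold is the plain ratio of the group RPKM values. The table is a selection, since no gene in it differs by less than 2-fold and the highest adjusted p in the authors' deposited table is 0.0423. That each of the 5 genes has such a ratio is therefore a property of the selection. Transporter genes outside the table, other CAX and ACA genes included, were not analysed here. Sequencing depth is unknown.

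All 5 transporter genes were higher with calcium, 5 of 5 at least 2-fold. The share of all listed genes that were higher by at least 2-fold was 52.6%. The ratios ran from 2.07-fold for ACA11 to 3.62-fold for a CAX1 gene, with a median of 2.76-fold, beside a median of 2.98-fold over the 71 higher genes of the table. At least 3-fold were 2 of the 5, both of them CAX1, against 25.2% of the table and 47.9% of its 71 higher genes. The members' ratios were thus of ordinary size among the higher genes, and 24 genes of the table had a larger ratio than either CAX1. In the same samples all 12 green tissue markers of the table, genes for the light-harvesting antenna, photosystem I and the small subunit of RuBisCO, were lower with calcium. Of all 135 listed genes, 64 were lower. The summed level of the 12 markers was 15889 RPKM under water and 7147 RPKM under calcium. The antenna gene LHCB1.3 (Bo4g182560) gave the largest part, at 7288 and 3605 RPKM. The part of tissue make-up in the transporter values was not tested. In bulk RNA, a change in the share of a cell type and a change of RNA per cell cannot be told apart.

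**Figure D1:**
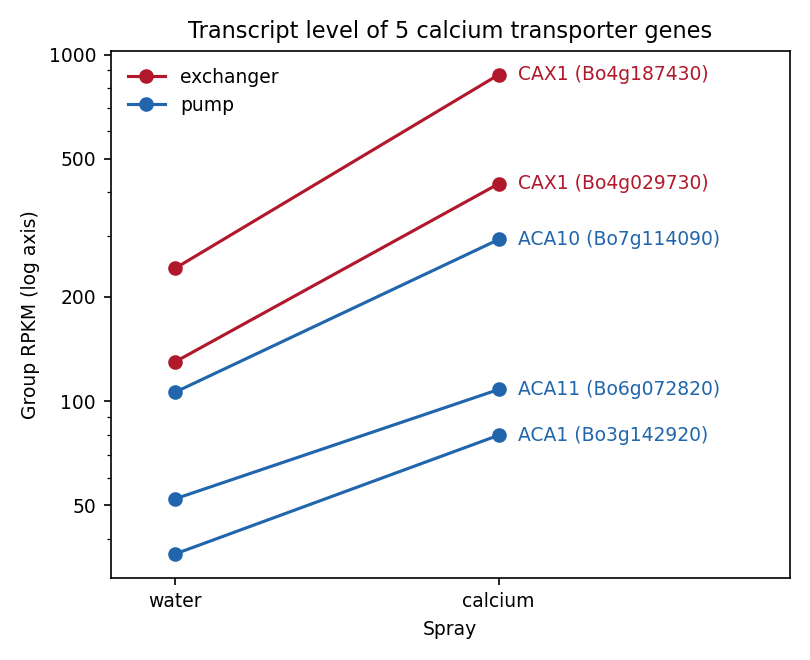
Group RPKM (log axis) of the 5 transporter genes with water and with calcium, 1 value per gene and spray, exchangers in red and pumps in blue, without error bars because no value per library is at hand. All 5 genes are higher with calcium, and the order of the genes is the same at both ends, from 36.2 to 242 RPKM with water and from 79.7 to 874 RPKM with calcium.

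The CAX1 exchangers were the most abundant of the 5 genes. Bo4g187430 stood at 242 RPKM under water and 874 RPKM under calcium, a 3.62-fold ratio and a difference of 633 RPKM, which is the rank 3 difference in the table. In level it held rank 21 of 135 with water and rank 5 with calcium. The other homologue, Bo4g029730, stood at 130 and 424 RPKM, which is 3.26-fold and a difference of 294 RPKM, and held ranks 35 and 12. Both match the same Arabidopsis gene, AT2G38170.1. Each has an adjusted p of 0 in the authors' deposited table, as have 41 genes in all, by a test that the header does not name.

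The CAX1 copies differed more in level than in ratio. The level of Bo4g187430 was 1.86 times that of Bo4g029730 with water and 2.06 times with calcium. It made up 65.0% of the summed CAX1 RPKM with water and 67.4% with calcium, so the balance of the copies differed little between sprays. Their log2 ratios lay 0.15 apart. How reads that match both copies were counted is not given, and the separate values of the copies are uncertain to that extent.

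The pumps were less abundant and had smaller ratios. ACA10 (Bo7g114090, match AT4G29900.1), known in Arabidopsis as a pump that expels calcium across the plasma membrane, stood at 106 RPKM under water and 293 RPKM under calcium. This is 2.76-fold, and the adjusted p in the authors' deposited table is 0. ACA10 supplied 54.5% of the summed pump RPKM with water and 60.9% with calcium.

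ACA11 (Bo6g072820, match AT3G57330.1), the pump of the vacuolar membrane in Arabidopsis, stood at 52.3 and 108 RPKM under water and calcium. Its 2.07-fold ratio lay near the lower limit of the table, with 4 of the 71 higher genes below it. With 5 RPKM added to both values it was under that limit, at 1.97-fold. ACA1 (Bo3g142920, match AT1G27770.1) was the least abundant member, at 36.2 and 79.7 RPKM under water and calcium, which is 2.20-fold. The authors' deposited table gives an adjusted p of 0.00153 for ACA11 and 0.00766 for ACA1.

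The order of the levels was the same under both sprays, with Bo4g187430 first, then Bo4g029730, ACA10, ACA11 and ACA1. The spread between the first and the last was 6.67 times with water and 11.0 times with calcium. The closest neighbours with water were Bo4g029730 and ACA10, whose levels were 1.22 times apart. With calcium the closest were ACA11 and ACA1, at 1.36 times. Whether any neighbours differ beyond the spread between libraries cannot be said, because that spread is not in the table.

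Set against each other by transport type, the exchangers had the larger ratios. Their mean log2 ratio was 1.78 (a 3.43-fold geometric mean), and that of the pumps was 1.22 (2.32-fold). The difference of 0.56 on the log2 scale corresponds to 1.48 times. A common scaling of either library group cancels out of this difference. Each CAX1 ratio was above each pump ratio, but the gap from the lower CAX1 to ACA10 was 0.24 on the log2 scale, which is less than the 0.41 from ACA10 to ACA11. With 2 genes of a shared match against 3 genes, and no replicate error, this is a description of the 5 genes.

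In summed level the exchangers stood at 372 RPKM with water and 1298 with calcium, and the pumps at 195 and 480 RPKM. Exchanger RPKM was 1.91 times pump RPKM with water and 2.70 times with calcium. Of the difference of 1212 RPKM summed over the 5 genes, 76.4% came from the CAX1 pair.

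The membrane known for each Arabidopsis match did not order the genes in the way transport type did. The vacuolar group holds both CAX1 genes and ACA11, and so both the largest ratio and the smallest. The mean log2 ratio was 1.54 for these 3 genes and 1.30 for ACA10 and ACA1 together. The difference of 0.24 is less than the distance from ACA11 to the lower CAX1 within the vacuolar group, which is 0.66 on the log2 scale. Among the pumps alone, the vacuolar ACA11 was 0.41 below the plasma membrane pump ACA10 and 0.09 below ACA1 in log2 ratio.

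**Figure D2:**
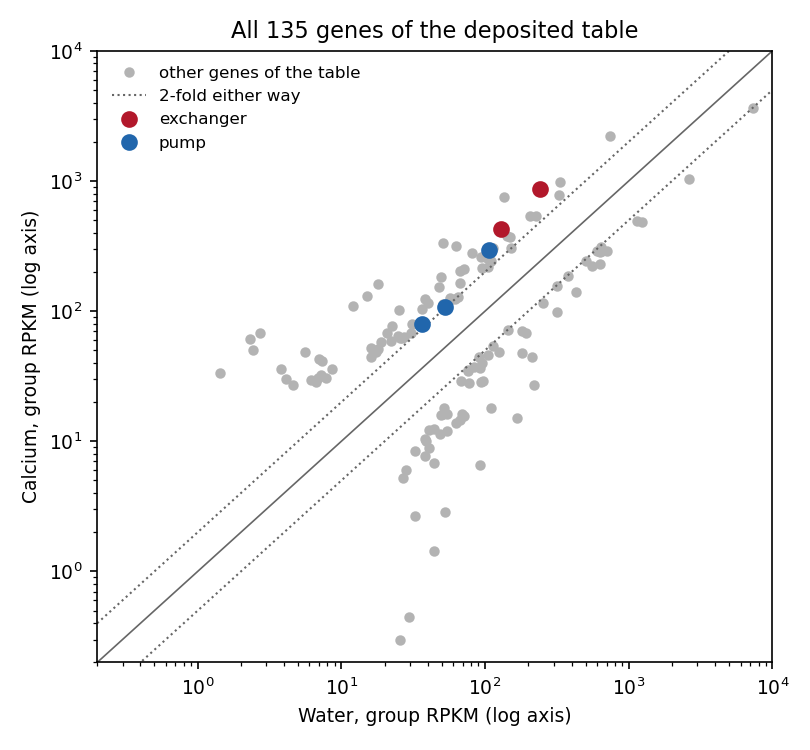
Group RPKM with water (horizontal, log axis) against group RPKM with calcium (vertical, log axis) for all 135 genes, with exchangers in red, pumps in blue and the other genes in grey. The dotted lines mark 2-fold either way, between which the table has no gene, and the 5 transporter genes lie above the upper line, with ACA11 at 2.07-fold next to it.

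The CAX1 genes combined a high level with a ratio above 3-fold. Of the 71 higher genes, 16 had at least 100 RPKM with water, a limit chosen after the values were seen, and these included both CAX1 genes and ACA10. Among the 16, the CAX1 genes ranked 2 and 3 by ratio and ACA10 ranked 6. The lipid transfer protein gene LTP3 (Bo2g026830), at 135 and 753 RPKM, was the 1 gene above the CAX1 pair. Next below the pair came an EF-hand calcium-binding gene (Bo4g197210, 737 and 2201 RPKM, 2.98-fold) and the pathogenesis-related gene PR-4 (333 and 987 RPKM, 2.96-fold). Both had higher levels than either CAX1, but their ratios were just under 3-fold. LTP3 did pass 3-fold, at 5.57-fold, so the combination is not particular to CAX1. The 24 genes with larger ratios than CAX1 had at most 135 RPKM with water.

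The genes with the nearest pair of values were found by distance on the log2 scale over the 2 group values. For Bo4g187430 they were a methyltransferase superfamily gene (Bo6g109010, 327 and 773 RPKM, distance 0.47) and the pathogenesis-related gene PR-4 (Bo3g058570, 333 and 987 RPKM, distance 0.49). For Bo4g029730 they were Bo9g120390 (distance 0.21) and an EF-hand calcium-binding gene (Bo4g013260, 150 and 374 RPKM, distance 0.28). The annotation of Bo9g120390 is a superfamily name that covers bifunctional inhibitors, lipid transfer proteins and seed storage albumins. EF-hand proteins bind calcium and serve as its sensors. ACA10 lay nearest to Bo3g052590, which has no annotation (distance 0.12), and to an aldolase-type gene (Bo3g101500, distance 0.21). ACA1 lay nearest to a heavy metal transport and detoxification gene (Bo2g024600, distance 0.07) and to the expansin gene EXPA10 (Bo01011s010, distance 0.23), whose product belongs to a family that loosens the cell wall. ACA11 lay nearest to DMR6 (Bo2g159320, distance 0.09), known in Arabidopsis for breaking down salicylic acid, and to the homeobox gene HB-12 (Bo4g100070, distance 0.21). No CAX1 or ACA gene was among the nearest 2 of another.

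The table holds 9 more genes for calcium binding and signalling, the EF-hand proteins and calmodulin-like CML41 that sense calcium and the copine BON3. All 9 were higher with calcium, 4 of them at least 3-fold, with a median of 2.98-fold. Over the whole table, 52.6% of genes were higher and 25.2% were higher by at least 3-fold. Of the 71 higher genes, 47.9% were at least 3-fold and the median was also 2.98-fold, so the 9 were of ordinary size among them. The range of the 9 ran from 2.39-fold (Bo4g190880, 225 and 537 RPKM) to 8.78-fold (Bo6g062100, 5.54 and 48.7 RPKM), both EF-hand genes. The 8.78-fold ratio rests on a low level with water. ACA11 and ACA1 had smaller ratios than any of these 9, whereas both CAX1 genes lay above their median. The summed level of the 9 genes was 1344 RPKM under water and 3852 RPKM under calcium, a ratio of 2.87, beside 3.49 for the summed exchangers and 2.47 for the summed pumps. The EF-hand gene Bo4g197210 gave the largest part of that sum, at 737 and 2201 RPKM (2.98-fold), so the 2.87 mainly follows this gene.

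The vacuole and tonoplast list took in genes by annotation word or by gene name. Apart from CAX1 it held 2 genes, ZIF1 by its name and DELTA-TIP3 by the word tonoplast, 1 higher and 1 lower. ZIF1 (Bo3g009320), a vacuolar membrane transporter known for zinc tolerance in Arabidopsis, was at 57.4 and 125 RPKM (2.18-fold higher). The aquaporin gene DELTA-TIP3 (Bo7g077600), for a water channel of the vacuolar membrane, was at 43.9 and 6.80 RPKM (6.45-fold lower). ACA11 was not among the names of this list, although its Arabidopsis match is known from the same membrane, so the list is not a full set of the vacuolar genes in the table.

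A list of words and gene names for ion, metal, proton and water transport held 7 genes beyond the members, 6 higher and 1 lower. The share of higher genes over the whole table was 52.6%. The median log2 ratio of the 7 was 1.29, beside 1.04 for the whole table, which mixes higher and lower genes, and 1.58 for its 71 higher genes. The lower gene was the water channel gene DELTA-TIP3, and the 6 higher genes were all annotated to metal handling. The largest ratio was that of a plant cadmium resistance 2 gene (Bo8g106400), at 3.80 and 36.1 RPKM (9.48-fold), and the highest level that of PCR2 (Bo8g106450), at 67.3 and 164 RPKM (2.44-fold). With calcium none of the 7 reached the level of either CAX1 or of ACA10, since their highest value was 164 RPKM. No proton pump of the vacuolar or plasma membrane and no calcium channel was matched. This says nothing of the levels of such genes, because genes that differed less are not in the table.

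**Figure D3:**
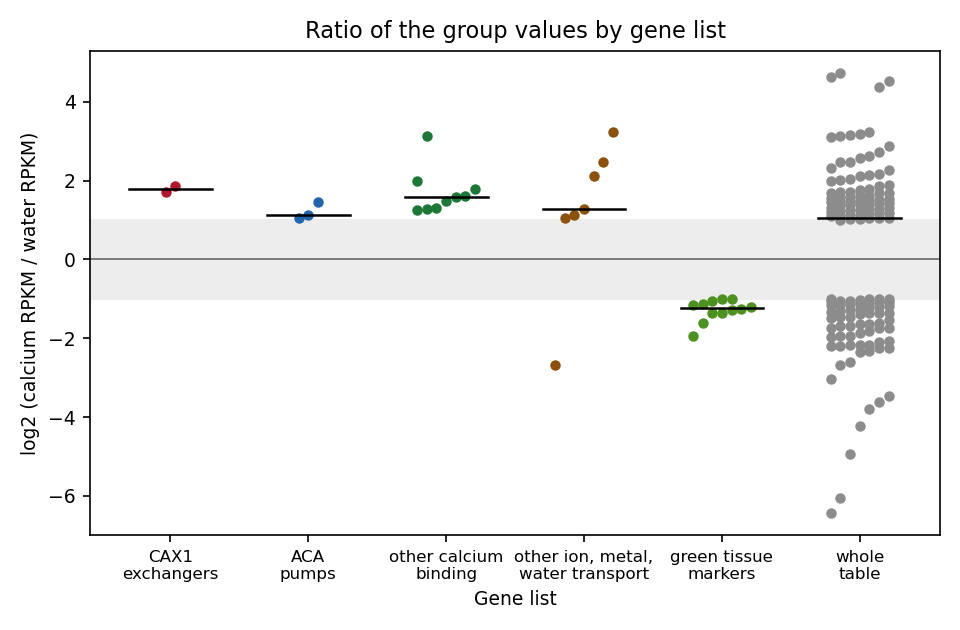
log2 of the calcium to water RPKM ratio for each gene (points) by gene list, with the median as a black line and the range under 2-fold in grey. The CAX1 exchangers lie at 1.71 and 1.85, the ACA pumps between 1.05 and 1.46, and the green tissue markers below 0 with a median of -1.23.

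Of the other tissue markers, the 1 root gene (RGF9, Bo2g166400) was 3.36-fold lower, at 54.3 and 16.2 RPKM. Both genes of the seed list were higher. M17 (Bo4g190800) stood at 2.42 and 50.1 RPKM under water and calcium, so its 20.7-fold ratio rests on a low level with water. Bo9g120390 was 2.65-fold higher, at 142 and 376 RPKM. Bo9g120390 entered the list only by the seed storage words of a superfamily name that also covers lipid transfer proteins. Its annotation therefore does not make it a seed marker. The part of these genes in the transporter values was not tested. The label hypocotyl could not be checked against markers of its own in a table of selected genes.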

How the data were processed

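RNA was sequenced from 4 hypocotyl libraries, 2 per spray, prepared with an Illumina TruSeq kit according to the labels. The deposited table gives 1 RPKM value per gene and group, per the file headers. Its control column is read here as water, the other group in the labels. The submitters' processing notes name CASAVA. Not given in the sources used here: aligner, genome build, annotation, how libraries were combined, and the test behind the deposited adjusted p-value. The deposited log10 columns equal the log10 of the RPKM columns, and the deposited fold score equals the ratio of the group values, with a minus sign where calcium is lower.

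The planned limma fit was not possible without values of single libraries. As planned for this case, both values and their ratio are given without a test. No pseudocount or filter was used. Members and gene lists, matched on annotation words and gene names, were chosen with earlier results of these data known. Named genes are all members, the 2 genes nearest to each, and genes of the calcium binding, vacuole and transport lists. From a list of more than 5 these are the highest and lowest ratio and the highest level. Other genes were named after their values were seen. RPKM depends on annotated length and total reads, and depth is unknown. Ratio computations were tested on simulated data. Python 3.11.15, NumPy 2.4.6, pandas 2.3.3 and matplotlib 3.10.9 were used.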

Additional observations from a re-analysis of the deposited data

How the results depend on the processing

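All 5 genes kept a ratio above 1 under every alternative run (1 or 5 RPKM added, the median log2 ratio of the table subtracted, the deposited log10 columns). Only subtracting the median could have changed this direction. Adding the same value to both groups cannot reverse a ratio, and the deposited log10 columns hold the same values as the RPKM columns. In the order Bo4g187430, Bo4g029730, ACA10, ACA1 and ACA11, the log2 ratios were 1.85, 1.71, 1.46, 1.14 and 1.05. With 1 RPKM added the last 4 were 1.70, 1.45, 1.12 and 1.03. With 5 RPKM added the 5 ratios were 1.83, 1.67, 1.42, 1.04 and 0.98, so 4 of 5 genes stayed at 2-fold. The exchanger against pump difference, 0.56, was 0.57 and 0.60 with 1 and 5 RPKM added. Subtracting the table's median of 1.04 gave 0.81, 0.67, 0.42, 0.10 and 0.0081, and 0 genes past 2-fold or past 3-fold (no tool gave a test, so no p exists for either count). That median is itself a gene at about the table's lower limit, because 71 of 135 selected genes were higher, so this does not normalize the libraries. A minimum of 20 RPKM in each group removed no member. No paired analysis was possible because the table has 1 value per group, and for the same reason no library could be left out. The summed levels had no alternative. The unknown depth and missing replicate spread limit every ratio here.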
